A study of Mus musculus with 23 samples.

Results

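The transcripts described here come from 43 genes of the DNA replication machinery, chosen by name from a list of replication factors and matched by symbol, ignoring case, in 3 tables of mouse mammary RNA-seq. All 43 were listed in each table, of 24391 genes for normal tissue, 24511 for PY230 tumours and 24322 for C3-1-TAg tumours. They were sorted by role into 10 genes of origin licensing, 5 of helicase activation, 8 of primase and polymerases, 6 of the sliding clamp and its loader, 4 of single-strand binding and fragment joining, 5 of nucleotide supply, 2 of chromatin assembly and 3 of fork protection and licensing control.

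As background, replication begins when the origin recognition complex, with Cdc6 and Cdt1, loads the ring-shaped Mcm2-7 helicase onto DNA before S phase. The GINS complex and Mcm10 then help to activate that helicase, primase and polymerase alpha lay down primers, and polymerases delta and epsilon extend them on the Pcna clamp that replication factor C loads. Transcripts of this machinery are low in resting cells and rise as cells enter the cycle, largely through E2F factors held back by the RB protein, so their summed level in a tissue is widely used as a sign of cycling cells.

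The normal libraries came from wild-type C57BL6J mice: fMaSC (fetal mammary stem cells) from E18 embryos, and adult basal, luminal progenitor and mature luminal cells, with 2 libraries per population. PY230 is a mouse mammary tumour line, grown here as transplants in syngeneic adult C57BL6J hosts, and its 6 libraries hold basal SOX10 high, luminal SOX10 high and luminal SOX10 low cells, 2 of each. C3-1-TAg tumours arose spontaneously in adult FVB mice that carry the SV40 T antigen transgene, and gave 5 SOX10 high and 4 SOX10 low libraries of cells titled basal. Every library was made by SmartSeq2 from about 2000 sorted cells, and SOX10 is a neural crest and mammary progenitor transcription factor after whose level the labels name the fractions. All PY230 libraries descend from a single cell line, which differs in strain from the C3-1-TAg mice, and the 3 tables were normalised separately, so each comparison stays within a table. T antigen is known to bind RB and p53, and every C3-1-TAg library carries it. The series' design text calls the libraries biological replicates without saying whether each came from its own animal. The p-values thus set a difference against the spread between libraries, estimated over all groups of a table, and not against a known spread between animals.

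Values are RPKM (reads scaled by gene length and library size), and differences are given on the log2(RPKM + 1) scale with the standard error (SE) of limma's fit. A gene was called where its Benjamini-Hochberg adjusted p over all genes tested in that table fell under 0.05. The libraries listed 10056 to 12504 genes at 1 RPKM or more, and the sources used here give no read totals. The 7 basal markers summed 1230.5 and 2592 RPKM in the adult basal libraries, 795 and 786 in fMaSC and 10.9 to 24.4 in the adult luminal populations. They summed 3043 and 2667 RPKM in the PY230 basal libraries and 33.1 to 109.8 in the luminal ones. In the C3-1-TAg libraries, titled basal, they summed 145 to 1132 RPKM, and the 4 luminal markers summed more, 1301 to 2363. Luminal markers also summed more than basal ones in adult basal cells (2910 RPKM in library 1, 1509 in library 2) and fMaSC (2576 and 2535). They did not in the PY230 basal libraries (333 and 516 RPKM). Sox10 stood at 66.9 to 101 RPKM in the PY230 SOX10 high libraries against 11.0 and 13.6 in the low ones. In the C3-1-TAg table the ranges for Sox10 were 91.9 to 164 in SOX10 high and 2.10 to 40.9 in SOX10 low libraries. Across libraries, C3-1-TAg SOX10 high 1 and SOX10 low 2 resembled each other (Pearson r = 0.979 over genes) more than any pair within a C3-1-TAg group, and SOX10 high 2 and SOX10 low 3 did likewise (r = 0.967). The deviations of these pairs from their group means correlated at 0.824 and 0.697. The labels name no source tumour, and whether a pair shares one, or a label is wrong, was not tested. PY230 luminal SOX10 high 2 lay nearer to the luminal SOX10 low libraries (r = 0.947 and 0.940) than luminal SOX10 high 1 did (r = 0.89 and 0.894).

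Each of the 43 replication genes was higher in fMaSC than in all 3 adult populations. Against adult basal cells 43 of 43 were called higher, where 36.9% of the 12553 genes tested were higher and 23.4% lower (60.3% either way). Against luminal progenitors 43 were higher, beside 35.5% of all genes higher and 15.0% lower (50.6% either way), and against mature luminal cells 43, beside 41.7% higher and 14.7% lower (56.4% either way). The median differences over the 43 genes were 3.38, 3.22 and 3.41, beside 0.27, 0.39 and 0.53 over all genes tested. These 3 comparisons share the same 2 fMaSC libraries. Cdc6, Mcm10, Pola2, Tk1, Chaf1a, Pold1, Pole, Rfc5 and Timeless passed the filter on low values only through those libraries. They could thus hardly be called in the other direction. Quantile normalization brought the medians of all genes to -0.023, -0.036 and -0.0029, and the counts higher and lower to 3718 and 3809, 3089 and 3142, and 3346 and 3246 genes, while the replication genes kept medians of 2.99, 2.78 and 2.92.

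For all 43 genes the lower fMaSC library lay above the highest of the 6 adult libraries, a separation that 35.8% of all genes tested showed. Summed over the list, the genes took 0.443% and 0.445% of all RPKM in the fMaSC libraries and between 0.0355% and 0.0570% in the adult ones. The 2 fMaSC libraries differed from each other by a median of 0.097 log2 units over the 43 genes, far less than the medians above. In bulk libraries such as these, fewer cycling cells and less replication RNA per cell cannot be told apart.

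**Figure D1:**
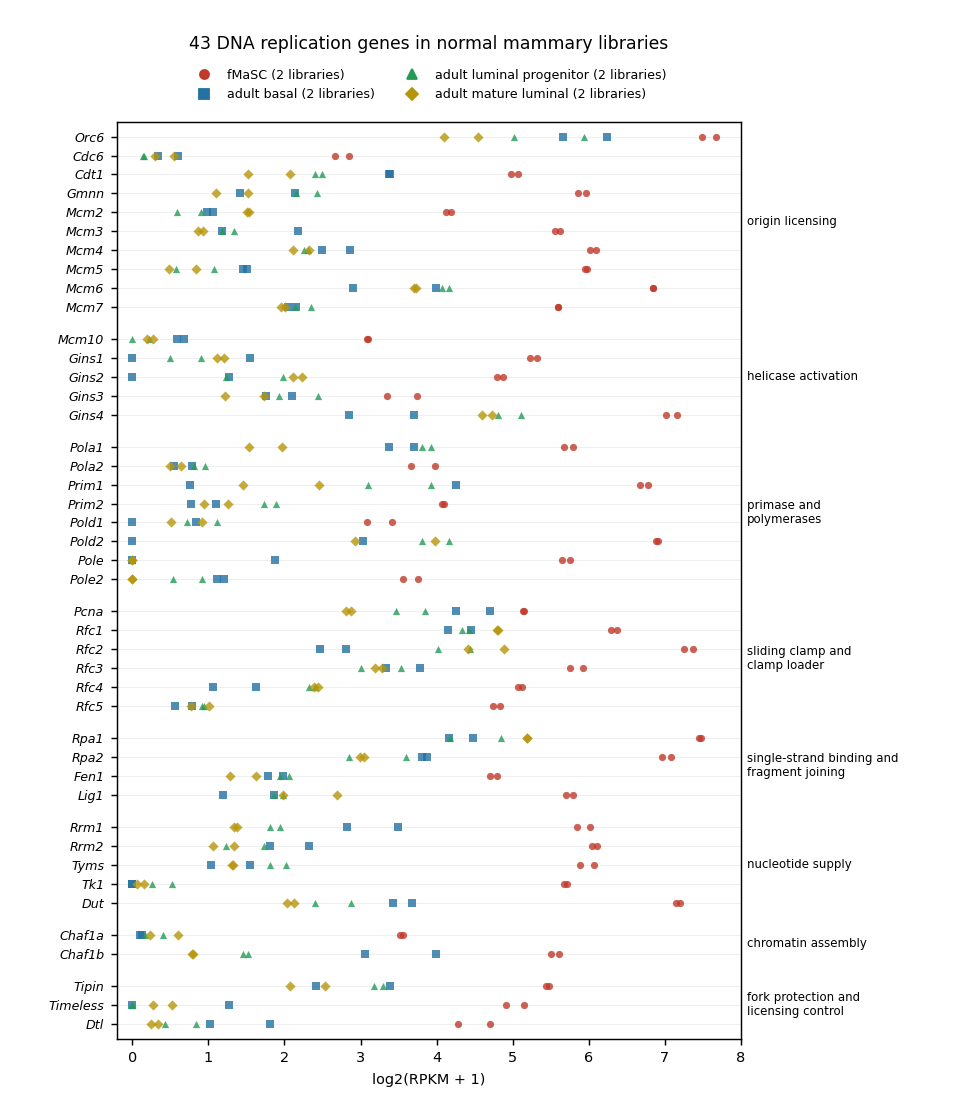
Levels of the 43 replication genes in the 8 normal libraries, on a log2(RPKM + 1) axis, 1 point per library, with genes sorted by role; no error bars are drawn because both libraries of each population are shown. Both fMaSC points of every gene sit to the right of all 6 adult points, with the narrowest gap at Pcna.

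**Figure D2:**
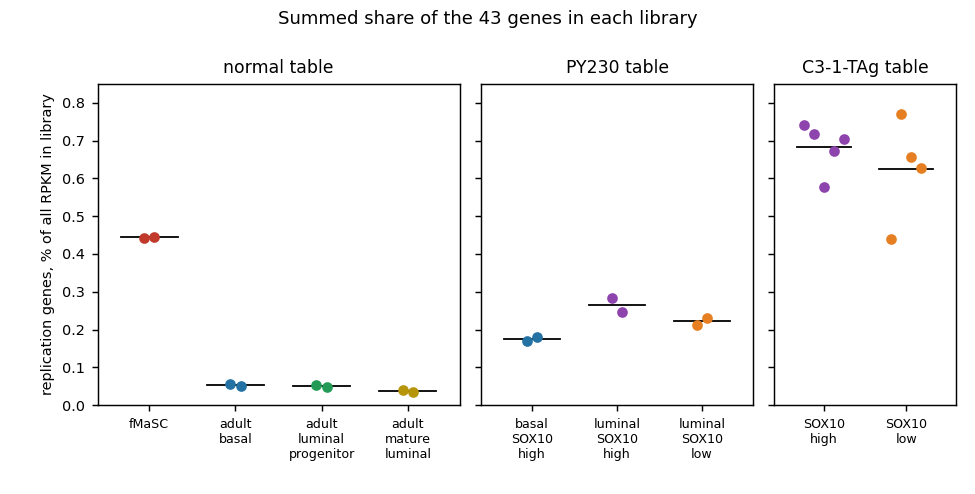
Percent of all RPKM in a library that falls on the 43 replication genes, 1 point per library and a line at each group's mean, in 3 panels because the tables were normalised separately. The fMaSC points sit at 0.443% and 0.445%, the adult points between 0.0355% and 0.0570%, the PY230 points between 0.171% and 0.283%, and the C3-1-TAg points between 0.441% and 0.772%.

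Because the genes moved together, their promoters were searched for words of the E2F site, to which E2F factors bind, in RefSeq promoter sequences of build GRCm38.p6 that run from 250 bases before to 50 after each start. The table held promoters for 34 of the 43 genes, 39 promoters in all, and lacked Gmnn, Mcm4, Gins1, Gins2, Gins4, Prim2, Pole, Rfc2 and Tipin. The words TTTCCCGC, TTTGGCGC, TTTCGCGC and TTTGCCGC were searched on both strands, with overlapping matches counted as 1. At least 1 match lay in 13 of the 39 promoters (33.3%), compared with 2.26% of all 32851 promoters in the table, 3.98% of the promoters of genes tested in the normal table, and 1 of 21 promoters (4.76%) of a list of mitosis genes. CCAAT, the word read by NF-Y, lay in 53.8% of the replication gene promoters, 37.4% of all promoters and 90.5% of the mitosis gene promoters. GGGCGG, an Sp1-type word, lay in 66.7%, 35.7% and 85.7% respectively, and in 62.7% of the promoters of genes tested in the normal table, a share close to that of the replication genes. Of the 13 promoters with an E2F word, 10 had one within 50 bases of the start. The size of the fetal difference was not larger with a match: the median of the mean difference over the 3 comparisons was 3.03 for the 13 genes with a match and 3.63 for the 21 without. These counts describe letters in a window and identify no bound factor.

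The promoters of 4 helicase subunits and of the clamp loader subunit Rfc3 are printed as examples of promoters with matches (the 4 genes with 2 separate matches, and Mcm5, the licensing gene with the largest mean fetal difference), and that of Pcna because it holds none and Pcna had the smallest mean fetal difference. Sequences are from RefSeq, build GRCm38.p6, read 5′ to 3′ along the gene, with the E2F words in capitals.
Mcm3, chr1:20820263-20820562, minus strand: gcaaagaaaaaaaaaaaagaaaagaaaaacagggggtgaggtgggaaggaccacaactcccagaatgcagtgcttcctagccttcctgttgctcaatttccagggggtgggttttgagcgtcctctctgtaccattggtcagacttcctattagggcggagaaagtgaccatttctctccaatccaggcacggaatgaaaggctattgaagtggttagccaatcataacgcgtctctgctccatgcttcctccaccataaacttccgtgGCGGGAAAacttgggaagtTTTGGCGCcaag
Mcm5, chr8:75109259-75109558, plus strand: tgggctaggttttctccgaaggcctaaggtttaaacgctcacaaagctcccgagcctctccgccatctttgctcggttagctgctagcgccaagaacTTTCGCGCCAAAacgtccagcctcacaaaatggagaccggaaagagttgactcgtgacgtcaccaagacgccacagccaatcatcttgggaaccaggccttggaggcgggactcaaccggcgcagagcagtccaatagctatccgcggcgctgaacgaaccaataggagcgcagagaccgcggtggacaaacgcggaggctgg
Mcm6, chr1:128359656-128359955, minus strand: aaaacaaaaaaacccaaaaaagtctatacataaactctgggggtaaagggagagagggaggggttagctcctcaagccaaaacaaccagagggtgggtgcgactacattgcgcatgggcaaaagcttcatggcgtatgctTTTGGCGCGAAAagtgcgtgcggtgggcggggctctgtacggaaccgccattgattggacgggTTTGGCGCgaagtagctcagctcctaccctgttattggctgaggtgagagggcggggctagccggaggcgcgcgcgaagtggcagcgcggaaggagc
Mcm7, chr5:138171834-138172133, minus strand: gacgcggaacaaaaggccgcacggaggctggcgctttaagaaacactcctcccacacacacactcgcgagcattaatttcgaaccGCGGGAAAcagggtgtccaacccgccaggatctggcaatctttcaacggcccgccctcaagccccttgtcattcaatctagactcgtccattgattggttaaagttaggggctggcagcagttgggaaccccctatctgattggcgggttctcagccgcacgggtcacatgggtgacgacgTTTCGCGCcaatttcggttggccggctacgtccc
Rfc3, chr5:151651159-151651458, minus strand: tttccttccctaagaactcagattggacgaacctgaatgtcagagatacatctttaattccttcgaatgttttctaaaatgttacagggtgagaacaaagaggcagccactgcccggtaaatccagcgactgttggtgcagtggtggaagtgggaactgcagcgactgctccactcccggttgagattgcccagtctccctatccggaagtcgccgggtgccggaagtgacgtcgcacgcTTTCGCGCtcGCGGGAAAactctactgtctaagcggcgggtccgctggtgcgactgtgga
Pcna, chr2:132253131-132253430, minus strand: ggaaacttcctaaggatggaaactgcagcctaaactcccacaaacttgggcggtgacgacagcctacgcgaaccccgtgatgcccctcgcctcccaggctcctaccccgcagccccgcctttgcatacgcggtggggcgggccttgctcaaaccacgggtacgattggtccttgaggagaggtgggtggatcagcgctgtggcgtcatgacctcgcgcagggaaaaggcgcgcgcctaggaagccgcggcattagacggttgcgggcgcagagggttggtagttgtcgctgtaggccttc
Mcm3, Mcm6, Mcm7 and Rfc3 are those 4 genes. In Mcm5 and at one site of Mcm6, words on opposite strands overlapped into 1 longer match.

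Among the origin licensing genes, Mcm5, a subunit of the helicase ring, showed the largest fetal difference and Orc6, the smallest subunit of the origin recognition complex, the smallest; such ranks within a role are by the mean of a gene's 3 differences from the adult populations. Mcm5 stood at 62 and 60.6 RPKM in fMaSC, against 1.85 and 1.73 in basal, 1.11 and 0.496 in luminal progenitor and 0.791 and 0.395 in mature luminal libraries. Its differences were 4.48 ± 0.26 (SE), 5.13 ± 0.26 and 5.30 ± 0.26, with limma adjusted p of 3.23e-05, 1.77e-05 and 1.09e-05 (n = 2 libraries per group). The lower fMaSC value was 32.8 times the highest adult value, a basal one. Orc6 stood at 204 and 179 RPKM in fMaSC, against 74.2 and 49.5 in basal, 60.5 and 31.5 in luminal progenitor and 22.3 and 16.1 in mature luminal libraries. Its 2 fMaSC libraries stood above all others, but the adults kept a median of 21.2% of the fetal level, and the difference from basal cells was 1.64 ± 0.35 (limma adjusted p = 0.00521), with an adjusted p of 0.0522 without fMaSC library 1.

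The other subunits of the helicase ring also stood above all adult values in both fMaSC libraries. Mcm2 stood at 16.5 and 17.2 RPKM in fMaSC, against 1.09 and 0.981 in basal, 0.51 and 0.872 in luminal progenitor and 1.84 and 1.91 in mature luminal libraries. Mcm3 stood at 48.4 and 45.8 RPKM in fMaSC, against 1.27 and 3.51 in basal, 1.54 and 1.26 in luminal progenitor and 0.823 and 0.907 in mature luminal libraries. Mcm4 stood at 63.7 and 67.2 RPKM in fMaSC, against 4.62 and 6.26 in basal, 3.78 and 3.94 in luminal progenitor and 4.02 and 3.33 in mature luminal libraries. All 3 subunits were several times higher in both fMaSC libraries than in any adult library, by 8.65 times for Mcm2, 13.1 for Mcm3 and 10.2 for Mcm4 at the nearest values. Mcm6 stood at 114 and 114 RPKM in fMaSC, against 6.44 and 15 in basal, 16.8 and 15.8 in luminal progenitor and 12.3 and 12 in mature luminal libraries. Mcm7 stood at 47.5 and 47.5 RPKM in fMaSC, against 3.14 and 3.45 in basal, 4.12 and 3.41 in luminal progenitor and 2.87 and 3.04 in mature luminal libraries. Mcm6 was the highest of the 6 ring subunits in every library of all 3 tables, although the proteins work in equal numbers. The highest of the 6 subunits exceeded the lowest 6.63 and 6.91 times in fMaSC and between 5.91 and 33.0 times in the adult libraries. RPKM is per length, so these levels can be set beside each other, within the limits of how the authors assigned reads.

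The loading factors and their inhibitor were also higher in fMaSC. Cdc6, the loading ATPase, was the lowest of the 43 genes in both fMaSC libraries. Cdc6 stood at 5.34 and 6.2 RPKM in fMaSC, against 0.27 and 0.513 in basal, 0.108 and 0.1 in luminal progenitor and 0.468 and 0.229 in mature luminal libraries. Its differences were 2.29, 2.61 and 2.33, compressed by the pseudocount because the adult values lay under 1 RPKM. Cdt1 stood at 30.5 and 32.7 RPKM in fMaSC, against 9.44 and 9.4 in basal, 4.62 and 4.26 in luminal progenitor and 1.88 and 3.21 in mature luminal libraries. Cdt1, the other loading factor, kept its highest adult level in basal cells. Gmnn stood at 61.4 and 56.8 RPKM in fMaSC, against 3.42 and 1.66 in basal, 3.46 and 4.4 in luminal progenitor and 1.86 and 1.14 in mature luminal libraries. Gmnn encodes geminin, the inhibitor of Cdt1. Its differences were 4.13, 3.61 and 4.60, against 1.64, 2.58 and 3.23 for Cdt1.

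Among the helicase activation genes, Gins1 differed most and Gins3 least. Gins1 stood at 36.3 and 39 RPKM in fMaSC, against 1.93 and 0 in basal, 0.404 and 0.873 in luminal progenitor and 1.3 and 1.16 in mature luminal libraries. Gins2 stood at 26.9 and 28.4 RPKM in fMaSC, against 1.41 and 0 in basal, 2.93 and 1.35 in luminal progenitor and 3.68 and 3.34 in mature luminal libraries. Both genes were listed at 0 in basal library 2, which listed 6 of the 43 genes at 0 (also Pold1, Pold2, Pole and Tk1), so no fold against basal cells is given for them. Gins3 stood at 9.16 and 12.4 RPKM in fMaSC, against 3.29 and 2.37 in basal, 2.81 and 4.45 in luminal progenitor and 1.34 and 2.32 in mature luminal libraries. Gins4 stood at 142 and 128 RPKM in fMaSC, against 12.1 and 6.19 in basal, 26.9 and 33.6 in luminal progenitor and 25.5 and 23.2 in mature luminal libraries. The Gins3 call against luminal progenitors was lost without fMaSC library 2 (adjusted p = 0.0835) or luminal progenitor library 1 (0.0595), and the Gins2 call against mature luminal cells with a pseudocount of 0.1 RPKM (0.0631). Gins4 was the highest GINS subunit in all 8 normal libraries, and its adult median was 18.0% of the fetal level, against 2.70% for Gins1. Gse1 covers 70.7% of the exon bases of Gins2 on the opposite strand in the GENCODE annotation, and reads of the pair cannot be told apart without strand. Mcm10 stood at 7.53 and 7.46 RPKM in fMaSC, against 0.597 and 0.499 in basal, 0 and 0.163 in luminal progenitor and 0.147 and 0.21 in mature luminal libraries. Mcm10, which binds the helicase as it opens DNA, was called in all 3 comparisons, with differences of 2.46, 2.98 and 2.85.

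Among the primase and polymerase genes, Pole had the largest mean difference, although against basal cells that of Pold2 was larger (5.37 and 4.76). Pole stood at 49 and 52.9 RPKM in fMaSC, against 2.68 and 0 in basal, 0 and 0 in luminal progenitor and 0 and 0 in mature luminal libraries. Pole, the catalytic subunit of polymerase epsilon, was thus listed at 0 in 5 of 6 adult libraries. Pold1 stood at 7.49 and 9.7 RPKM in fMaSC, against 0.79 and 0 in basal, 0.652 and 1.17 in luminal progenitor and 0.419 and 0.892 in mature luminal libraries. Pold1, the catalytic subunit of polymerase delta, had the smallest mean difference of this role, at 2.83, 2.33 and 2.54, although Pola1 differed less from basal cells and luminal progenitors (2.18 and 1.86). The Pold1 level was low in fMaSC too. Pold2 stood at 116 and 119 RPKM in fMaSC, against 7.19 and 0 in basal, 12.9 and 16.8 in luminal progenitor and 14.8 and 6.61 in mature luminal libraries. The accessory delta subunit Pold2 stood above 100 RPKM in fMaSC but varied among adults from 0 to 16.8 RPKM, and its call against luminal progenitors was lost without the filter on low values (adjusted p = 0.0581), with a pseudocount of 0.1 RPKM (adjusted p = 0.189) and without any 1 of the fMaSC or luminal progenitor libraries (adjusted p = 0.0879 to 0.135). Its call against mature luminal cells was lost with that pseudocount (adjusted p = 0.12) and without fMaSC library 1, fMaSC library 2 or mature luminal library 2 (adjusted p = 0.08 to 0.082). Prim1 stood at 108 and 101 RPKM in fMaSC, against 18.1 and 0.695 in basal, 14.2 and 7.54 in luminal progenitor and 4.46 and 1.75 in mature luminal libraries. Prim1, the catalytic primase subunit, differed widely between the 2 basal libraries. Its call against luminal progenitors was lost under 6 of 9 alternatives, among them leaving out any 1 of the 4 libraries (adjusted p = 0.0661 to 0.15), the call against basal cells without either fMaSC library (0.0669 and 0.0623), and that against mature luminal cells without fMaSC library 1 (0.0507). Pola1 stood at 54.2 and 49.8 RPKM in fMaSC, against 9.41 and 12 in basal, 13 and 14.2 in luminal progenitor and 1.9 and 2.91 in mature luminal libraries. Pola1, the catalytic subunit of polymerase alpha, was higher in basal and luminal progenitor cells than in mature luminal cells.

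The clamp gene Pcna had the smallest mean fetal difference of the 43 genes and the smallest from basal cells, while Gins3 differed less from luminal progenitors (1.36 against 1.49) and Rfc1 and Gins3 less from mature luminal cells (1.53 and 2.07 against 2.30). Pcna stood at 34.6 and 34.3 RPKM in fMaSC, against 25.1 and 18.2 in basal, 13.4 and 10.1 in luminal progenitor and 6.33 and 6.02 in mature luminal libraries. Its difference from basal cells was 0.66 ± 0.23 (limma adjusted p = 0.0403), and it was lost under quantile normalization (0.41, adjusted p = 0.118) and median-of-ratios scaling (0.38, adjusted p = 0.149). It was also lost without basal library 2 (0.44, adjusted p = 0.12), fMaSC library 1 (0.66, adjusted p = 0.152) or fMaSC library 2 (0.67, adjusted p = 0.145). Adults kept a median of 34.1% of the fetal Pcna level, the most of any member. The genome holds processed Pcna pseudogenes, which the tables do not list separately, so some of these reads may belong to copies.

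All 5 clamp loader subunits were called higher in fMaSC in the 3 comparisons. Rfc5 stood at 27.6 and 25.8 RPKM in fMaSC, against 0.716 and 0.48 in basal, 0.885 and 0.915 in luminal progenitor and 0.705 and 1.02 in mature luminal libraries. Rfc5 had the largest mean difference of the role, with no adult library above 1.02 RPKM, although Rfc2 differed more from basal cells (4.67 against 4.12). Rfc1 stood at 81.8 and 77.6 RPKM in fMaSC, against 16.8 and 20.9 in basal, 20.6 and 19.2 in luminal progenitor and 26.8 and 26.9 in mature luminal libraries. Rfc1, the large subunit, kept a median of 26.1% of its fetal level. Rfc2 stood at 152 and 164 RPKM in fMaSC, against 6.02 and 4.53 in basal, 15.2 and 20.8 in luminal progenitor and 28.5 and 20.4 in mature luminal libraries. Rfc4 stood at 32.6 and 33.9 RPKM in fMaSC, against 2.08 and 1.08 in basal, 4.29 and 4 in luminal progenitor and 4.42 and 4.24 in mature luminal libraries. In the adult libraries these 2 subunits were lowest in basal cells, so the order of loader subunits changed between populations: Rfc2 was the highest of the 5 in fMaSC and Rfc1 in basal cells. Rfc3 stood at 52.9 and 59.97 RPKM in fMaSC, against 12.7 and 9.11 in basal, 10.6 and 7.02 in luminal progenitor and 8.75 and 8.16 in mature luminal libraries. Parts of the exons of Rfc2, Rfc4 and Rfc5 (19.1%, 13.4% and 15.4% of bases) overlap Lat2, Eif4a2 and Wsb2 on the opposite strand.

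All 4 genes of single-strand binding and joining and all 5 of nucleotide supply were also higher in fMaSC in the 3 comparisons. Lig1 stood at 54.5 and 51 RPKM in fMaSC, against 1.28 and 2.64 in basal, 2.63 and 2.95 in luminal progenitor and 2.95 and 5.49 in mature luminal libraries. Lig1 seals Okazaki fragments, and its differences were 4.22, 3.83 and 3.41. Rpa1 stood at 177 and 174 RPKM in fMaSC, against 17 and 21.3 in basal, 17.1 and 27.8 in luminal progenitor and 35.4 and 35.3 in mature luminal libraries. Rpa1, the large subunit of the single-strand binding protein, was the member with the highest level in both mature luminal libraries, and had the smallest mean difference of its role, although Fen1 differed less from basal cells and luminal progenitors. Tk1 stood at 51.6 and 50.05 RPKM in fMaSC, against 0 and 0 in basal, 0.196 and 0.441 in luminal progenitor and 0.11 and 0.0456 in mature luminal libraries. Tk1 makes thymidine monophosphate by salvage, is known to be confined to cycling cells, and had the largest mean difference of the 43 genes, at 5.70 ± 0.20, 5.30 ± 0.20 and 5.59 ± 0.20 (limma adjusted p = 1.28e-05, 1.21e-05 and 7.45e-06). Like Pole, Rfc5 and Timeless, which led other roles, Tk1 passed the filter on low values only through fMaSC. These genes could hardly be called in the other direction. Rrm1 stood at 56.6 and 63.4 RPKM in fMaSC, against 6.04 and 10.3 in basal, 2.83 and 2.5 in luminal progenitor and 1.53 and 1.6 in mature luminal libraries. Rrm1, the large subunit of ribonucleotide reductase, had the smallest mean difference of nucleotide supply, with both basal values above all luminal ones. The adult medians of Rrm2, Tyms and Dut were 2.90%, 2.76% and 3.71% of the fetal level.

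Chromatin assembly and fork protection genes completed the list. Chaf1a stood at 10.8 and 10.5 RPKM in fMaSC, against 0.0902 and 0.0766 in basal, 0.328 and 0.124 in luminal progenitor and 0.519 and 0.178 in mature luminal libraries. Chaf1b stood at 44.5 and 47.9 RPKM in fMaSC, against 14.9 and 7.33 in basal, 1.75 and 1.88 in luminal progenitor and 0.739 and 0.717 in mature luminal libraries. Both encode subunits of CAF-1, which places histones on new DNA, yet they differed in adult cells: Chaf1a was under 1 RPKM in all 6 adult libraries and Chaf1b reached 14.9 RPKM in basal library 1. Ubxn6 overlaps 33.6% of the exon bases of Chaf1a on the opposite strand. Timeless stood at 34.6 and 29 RPKM in fMaSC, against 0 and 1.41 in basal, 0 and 0 in luminal progenitor and 0.214 and 0.443 in mature luminal libraries. Timeless, a fork protection factor, was listed at 0 in 3 adult libraries. Tipin stood at 43.4 and 42.5 RPKM in fMaSC, against 4.32 and 9.48 in basal, 8.8 and 8.03 in luminal progenitor and 4.81 and 3.22 in mature luminal libraries. Its partner Tipin kept a median of 15.0% of the fetal level, against 0.336% for Timeless, and both were called in all 3 comparisons.

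The sums of fat, red cell and fibroblast markers also stood higher in fMaSC, while those of endothelial and immune markers did not. The 6 fat markers summed 118 and 109 RPKM in fMaSC and at most 0.955 in any adult library, and 5 red cell markers summed 260 and 333 against at most 9.40. Car3 alone gave 86.4 and 78.9 RPKM of the fat marker sums in fMaSC. The 7 fibroblast markers summed 65.5 and 76.9 against 7.01 to 57.7, with 0 of the 7 at 0 in fMaSC, as in adult basal library 2 and mature luminal library 2. Among them Dcn stood at 49.7 and 50.0 RPKM in the adult basal libraries. No fibroblast marker exceeded 17.3 RPKM in fMaSC library 1 or 22.9 in library 2, so Dcn was lower in fMaSC than in basal cells. The 5 endothelial markers summed 16.5 and 10.6 RPKM in fMaSC, within the 1.62 to 19.6 of the adult libraries. Both fMaSC libraries listed the fat marker Lep at 0, and 0 of the 5 red cell markers. The part of such cells in the fetal differences was not tested. The 8 immune markers summed 9.61 and 11.1 RPKM in fMaSC, below the 14.2 to 74.7 of the adult libraries, with the pan-leukocyte marker Ptprc listed at 0 in both.

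Among the 3 adult populations the replication genes stood below fMaSC throughout and split in direction. In each adult library 6 to 11 of the 43 genes reached 10 RPKM, the highest being Orc6 at 74.2 in basal library 1. Basal cells differed most from mature luminal cells: 12 of the 43 genes were higher in basal cells and 5 were lower, where 28.8% of all genes tested were higher and 19.8% lower (48.6% either way). The share of members called was thus below that of all genes. Members that passed the filter only through fMaSC count in that share, though at their low adult levels they could hardly be called. Under quantile normalization the split was 8 higher and 7 lower, with 2964 higher and 3389 lower over all genes in place of 3611 and 2488. The count fell to 10 without either mature luminal library, 8 higher and 2 lower without library 1 and 7 higher and 3 lower without library 2. Median differences were 0.32 over the members and 0.12 over all genes.

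Genes higher in basal than in mature luminal cells came from several roles. Chaf1b led at 2.74 ± 0.32 (limma adjusted p = 0.000642), with both basal values above all 4 luminal ones. Rrm1 followed at 1.80 ± 0.27 (adjusted p = 0.00179), Pola1 at 1.79 ± 0.23 (adjusted p = 0.00104) and Pcna at 1.64 ± 0.23 (adjusted p = 0.00144). Orc6, Cdt1, Dut, Dtl, Rrm2, Rpa2 and Mcm5 were called at 1.63, 1.58, 1.47, 1.13, 0.86, 0.82 and 0.82. Pole2, a non-catalytic subunit of polymerase epsilon, was called too, with 1.17 and 1.3 RPKM in basal libraries and both mature luminal libraries listed at 0. Dtl, which directs Cdt1 for destruction in S phase, stood at 1.04 and 2.5 RPKM in basal and 0.184 and 0.26 in mature luminal libraries, and its call was lost without either mature luminal library or basal library 2 and under quantile normalization (adjusted p = 0.0625 to 0.111). The calls of Mcm5, Rrm2 and Rpa2 were lost under 5, 6 and 7 of 9 alternatives (adjusted p = 0.0537 to 0.171, 0.0543 to 0.172 and 0.0525 to 0.164), in each case with quantile normalization, without the filter and without either mature luminal library, and Orc6 without mature luminal library 2 (0.0508).

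The 5 genes lower in basal cells were Rfc2 at -2.01 ± 0.25, Gins2 at -1.54 ± 0.44, Gins4 at -1.38 ± 0.29, Rfc4 at -1.07 ± 0.25 and Rpa1 at -0.86 ± 0.25 (limma adjusted p from 0.000866 to 0.0238). For Rfc2 and Gins4 both basal values lay below all 4 luminal values. One basal library listed Gins2 at 0, and the call was lost without that library (-0.90, adjusted p = 0.0558), without either mature luminal library, without the filter on low values and with a pseudocount of 0.1 RPKM (adjusted p = 0.0503 to 0.107). The Rpa1 call was lost without basal library 1 or either mature luminal library (adjusted p = 0.0654 to 0.0978), and the Rfc4 call without mature luminal library 1 (adjusted p = 0.0613). The clamp and 1 subunit of its loader went in opposite directions here, and kept their calls under every alternative run: Pcna was higher in basal cells while Rfc2 was lower.

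Luminal progenitors differed from basal cells in 9 genes, 4 higher and 5 lower, beside 14.5% and 21.0% of all genes tested (35.5% either way). The higher genes were Gins4 at 1.68 ± 0.29, Rfc2 at 1.59 ± 0.25, Rfc4 at 1.02 ± 0.25 and the primase subunit Prim2 at 0.88 ± 0.24. Prim2 stood at 2.71 and 2.31 RPKM in luminal progenitor and 1.14 and 0.706 in basal libraries. The lower genes were Chaf1b at -2.03 ± 0.32, Rrm1 at -1.28 ± 0.27, Cdt1 at -0.94 ± 0.24, Dut at -0.91 ± 0.23 and Pcna at -0.83 ± 0.23. The adjusted p from limma was 0.00325 for Chaf1b and 0.0298 for Pcna, whose call was lost without basal library 1 (adjusted p = 0.0595) or luminal progenitor library 2 (adjusted p = 0.148). Without luminal progenitor library 1 or 2 the calls of Prim2 (adjusted p = 0.11 and 0.0724), Rfc4 (0.0807 and 0.068) and Cdt1 (0.0745 and 0.097) were lost, and without library 2 those of Rrm1 (0.0581) and Dut (0.0992), while Chaf1b, Gins4 and Rfc2 kept theirs under all 9 alternatives. The count was 16 without basal library 1, 15 without basal library 2 and 4 without luminal progenitor library 2. Over all genes, quantile normalization moved the calls from 1814 higher and 2641 lower to 2339 and 2242.

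Luminal progenitors and mature luminal cells had the fewest calls of the 3 adult pairs, with 2 replication genes higher and 1 lower in progenitors, beside 13.4% and 8.63% of all genes (22.1% either way). Pola1 was higher by 2.12 ± 0.23 (limma adjusted p = 0.00155), at 13 and 14.2 RPKM against 1.9 and 2.91, and the values did not overlap. Pcna was higher by 0.82 ± 0.23 (adjusted p = 0.0445) and Mcm2 lower, at -0.77 ± 0.21 (adjusted p = 0.0414). The Pcna and Mcm2 calls were lost without the filter on low values (adjusted p = 0.0595 and 0.0685) and without any 1 of the 4 libraries. The split was 4 higher and 1 lower with median-of-ratios scaling, and 3 and 1 with quantile normalization, where all genes split 1490 higher and 1458 lower in place of 1687 and 1083.

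The 5 genes called lower in luminal progenitors than in basal cells, Chaf1b, Rrm1, Cdt1, Dut and Pcna, all ran downward from basal through luminal progenitor to mature luminal means. Of these 5 only Pcna also passed between luminal progenitors and mature luminal cells. Pola1 had a different order, high in basal and luminal progenitor cells, which differed by 0.32 ± 0.23 (adjusted p = 0.311), and low in mature luminal cells.

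**Figure D3:**
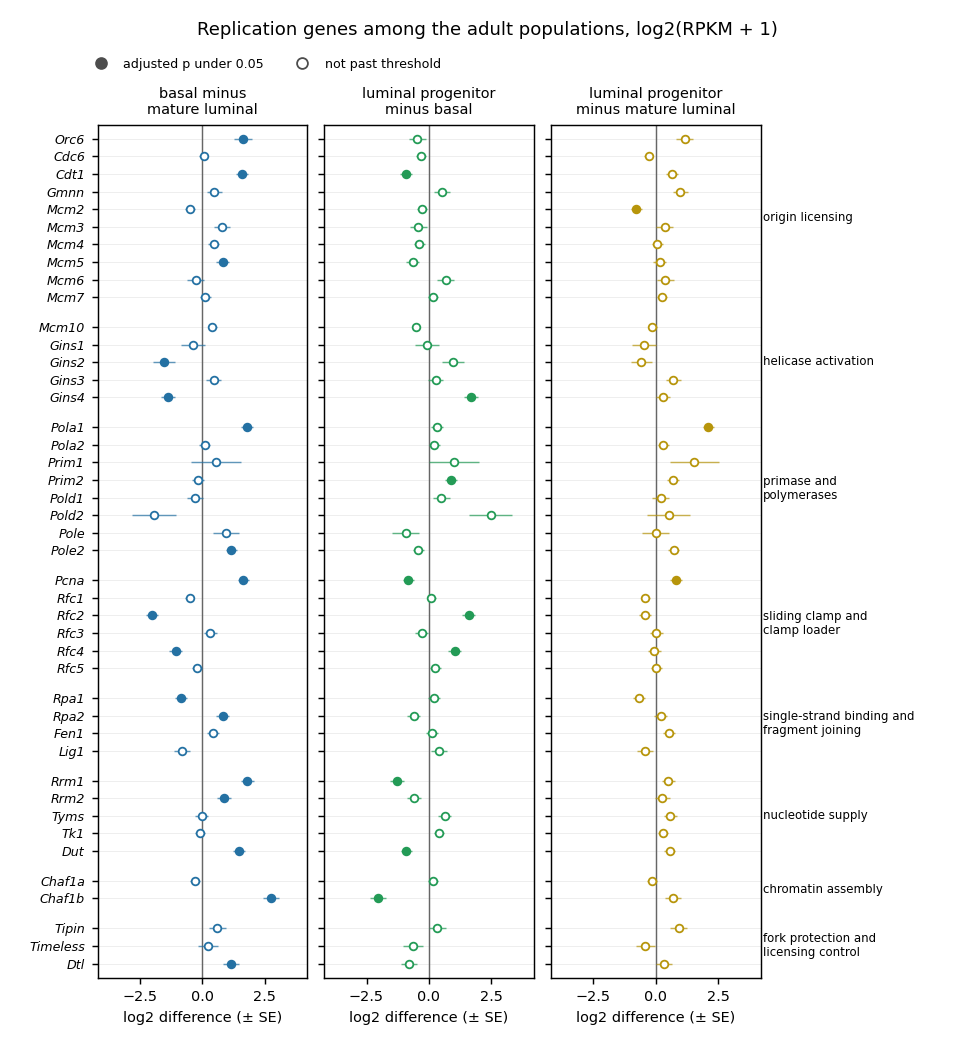
Differences in log2(RPKM + 1) between adult populations for each replication gene, with bars for ± SE of limma's fit (2 libraries per population), filled where the adjusted p is under 0.05 and open elsewhere. Points fall on both sides of 0: basal minus mature luminal has 12 filled points above 0 and 5 below, and the 2 comparisons of luminal progenitors have 9 and 3 filled points.

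In PY230 tumours every one of the 43 genes had a lower mean in basal SOX10 high than in luminal SOX10 high cells, and 27 were called lower, where 28.2% of the 13136 genes tested were lower and 13.8% higher (42.0% either way). Against luminal SOX10 low cells 20 were called lower and 0 higher, beside 33.4% and 21.8% of all genes (55.2% either way). The median differences were -0.64 and -0.45 over the members and -0.21 and -0.16 over all genes. Both comparisons share the same 2 basal libraries. For 34 genes both basal values lay below all 4 luminal values, a pattern that 39.7% of all genes showed, and for 0 genes above them (19.5% of all genes). The genes took 0.171% and 0.18% of RPKM in basal libraries, 0.283% and 0.246% in luminal SOX10 high and 0.211% and 0.232% in luminal SOX10 low libraries.

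Scaling and single libraries moved these counts. Quantile normalization gave 20 lower against luminal SOX10 high, and 13 lower and 2 higher against luminal SOX10 low, with 2383 genes higher and 2780 lower over the whole table in the first comparison in place of 1814 and 3699. Median-of-ratios scaling gave 11 lower and 1 higher against luminal SOX10 low, with 3471 genes higher and 3581 lower in place of 2865 and 4389. Without basal library 1, basal library 2 or luminal SOX10 high library 1, the first count fell from 27 to 12, 13 and 16. Without basal library 1 or 2, or luminal SOX10 low library 1 or 2, the second fell from 20 to 6, 9, 10 and 5. Under every alternative run, 10 of the 27 genes kept their call in the first comparison (Cdc6, Gmnn, Mcm2, Mcm6, Gins2, Prim1, Pole2, Lig1, Chaf1a and Timeless) and 5 of the 20 in the second (Mcm2, Mcm6, Gins2, Lig1 and Rrm2).

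Mcm6 had the largest difference in both comparisons. It stood at 24 and 28.4 RPKM in basal SOX10 high, 73.1 and 67.1 in luminal SOX10 high and 87.4 and 95.4 in luminal SOX10 low libraries. The basal libraries lay well below the luminal ones, by -1.39 ± 0.14 and -1.77 ± 0.14 (limma adjusted p = 0.000517 and 0.000113), and the mean of the luminal SOX10 low libraries was 3.49 times the basal mean. Of the other ring subunits, Mcm2, Mcm5 and Mcm7 were lower in basal cells in both comparisons, and Mcm3 was lower against luminal SOX10 high, at -0.67 ± 0.18. Mcm4 passed in neither, at -0.39 ± 0.17 and -0.45 ± 0.17. Mcm4 stood at 10.9 and 14.5 RPKM in basal SOX10 high, 18.1 and 15.6 in luminal SOX10 high and 17.6 and 17.5 in luminal SOX10 low libraries. Mcm5 stood at 9.83 and 9.74 RPKM in basal SOX10 high, 25.2 and 17 in luminal SOX10 high and 15.1 and 18.6 in luminal SOX10 low libraries, and Mcm2 at 11.3 and 10.8 RPKM in basal SOX10 high, 21.7 and 19 in luminal SOX10 high and 20.5 and 24.3 in luminal SOX10 low libraries. The highest ring subunit exceeded the lowest 2.44 and 2.92 times in basal libraries, 4.04 and 4.30 times in luminal SOX10 high and 5.80 and 5.45 times in luminal SOX10 low libraries.

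Gins2 was the other gene with a drop over 1 log2 unit against luminal SOX10 low cells. It stood at 8.28 and 8.48 RPKM in basal SOX10 high, 18.2 and 16.5 in luminal SOX10 high and 22.8 and 24.9 in luminal SOX10 low libraries, with differences of -0.97 ± 0.13 and -1.40 ± 0.13 (limma adjusted p = 0.00152 and 0.000192). Gins4 was lower against luminal SOX10 high, at -0.64 ± 0.14, and against luminal SOX10 low its difference of -0.33 ± 0.14 did not pass (adjusted p = 0.0916). Gins1 and Gins3 passed in neither comparison. Gins3 was the lowest GINS subunit in all 6 libraries, at 1.65 and 2.35 RPKM in basal SOX10 high, 1.77 and 2.78 in luminal SOX10 high and 1.73 and 1.63 in luminal SOX10 low libraries, with basal and luminal values overlapping.

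Polymerase genes divided by subunit. Pole2 was lower in basal cells by -1.31 ± 0.21 against luminal SOX10 high (limma adjusted p = 0.00319) and -0.71 ± 0.21 against luminal SOX10 low cells (adjusted p = 0.0238). It stood at 2.69 and 2.79 RPKM in basal SOX10 high, 9.99 and 6.79 in luminal SOX10 high and 4.57 and 5.72 in luminal SOX10 low libraries, and the groups did not overlap. Prim1 and Pold1 were also lower in both comparisons, at -0.86 and -0.48 for Prim1 and -0.49 and -0.40 for Pold1. The Pold1 calls were lost under 5 of 9 and 7 of 10 alternatives (adjusted p = 0.0692 to 0.126 and 0.0634 to 0.209), including both other scalings and either basal library left out, and the second also with a replicate block (0.0634). The second Prim1 call was lost under 6 of 10 (0.0652 to 0.142). Pola1, Pola2, Prim2, Pold2 and Pole passed in neither. Pola1 stood at 4.53 and 5.54 RPKM in basal SOX10 high, 5.69 and 5.12 in luminal SOX10 high and 3.67 and 3.1 in luminal SOX10 low libraries, and its basal values overlapped those of luminal SOX10 high cells and lay above those of luminal SOX10 low cells. Pold2 stood at 26.3 and 19.9 RPKM in basal SOX10 high, 27.5 and 19.3 in luminal SOX10 high and 16.3 and 22.3 in luminal SOX10 low libraries, with basal library 1 the second highest of the 6.

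The remaining roles held calls in both comparisons. All of the clamp and loader genes but Rfc3 were lower against luminal SOX10 high cells, and Pcna and Rfc1 against luminal SOX10 low cells. Both Pcna calls were lost with median-of-ratios scaling (limma adjusted p = 0.0669 and 0.104) and without either basal library (0.0744 to 0.117), and the second also with quantile normalization (0.0709) and without either luminal SOX10 low library (0.0906 and 0.167). Lig1 was lower in both, at -1.01 ± 0.18 and -0.95 ± 0.18, and stood at 15.4 and 11.9 RPKM in basal SOX10 high, 31.3 and 25.7 in luminal SOX10 high and 24.5 and 30.1 in luminal SOX10 low libraries. Rrm2 was lower in both, at -0.70 and -0.95, Tyms and Tk1 were called in the first and Dut in the second. Chaf1a and Timeless were called lower in both comparisons, and Chaf1b and Dtl against luminal SOX10 high cells. A call in 1 comparison alone does not show that the comparisons differ, which was not tested: Tyms, Tk1, Dut and Chaf1b had both basal values below all 4 luminal ones. Rpa1 was lower in basal than in luminal SOX10 low cells, at -0.52 ± 0.15.

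The sorted fractions also differed in fibroblast markers, whose 7 genes summed 149 and 242 RPKM in the basal libraries and 48.7 to 137 in the luminal ones, with 0 of the 7 at 0 in any library. The 8 immune markers summed 34.5 and 46.7 in the basal and 13.8 to 51.8 in the luminal libraries. The part of such cells in the basal differences was not tested.

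**Figure D4:**
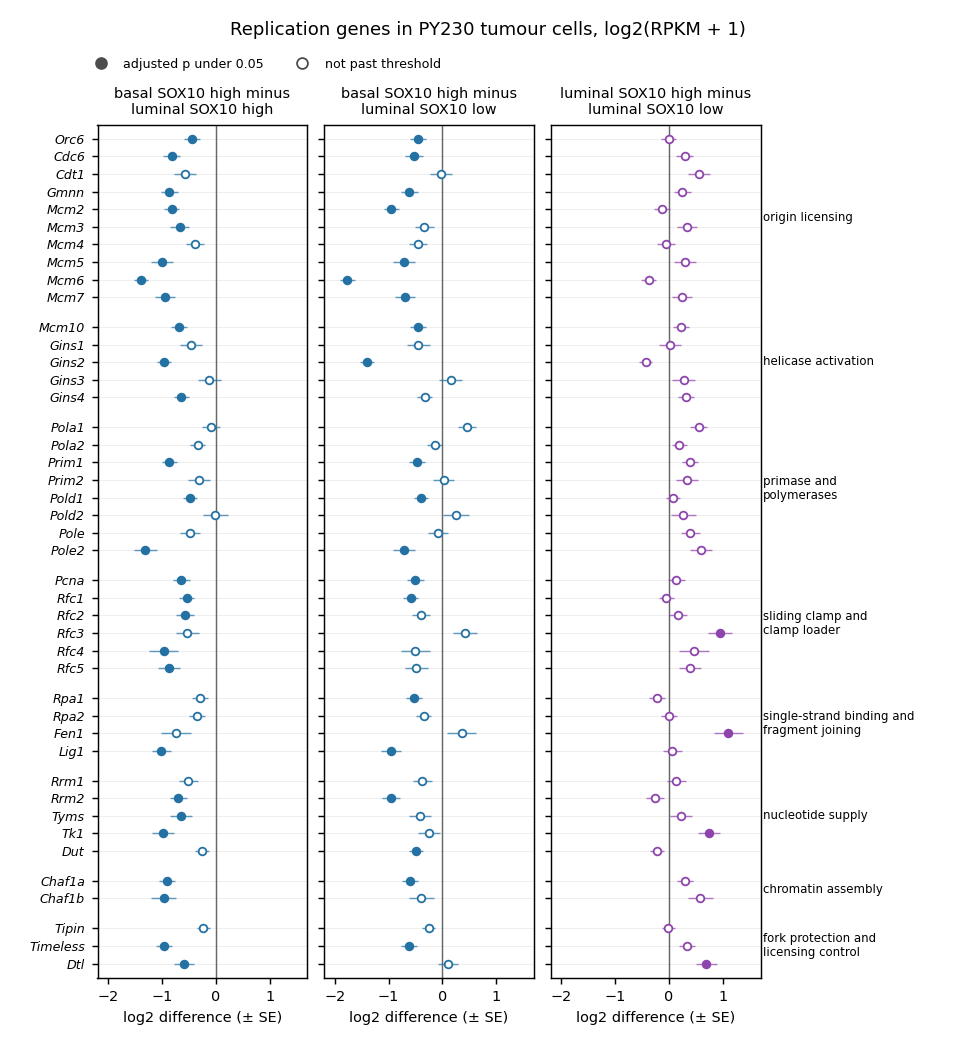
Differences in log2(RPKM + 1) between PY230 fractions for each replication gene, with bars for ± SE of limma's fit (2 libraries per fraction), filled where the adjusted p is under 0.05 and open elsewhere. In the first panel all 43 points lie below 0 and 27 are filled, in the second 20 are filled, all below 0, and in the third 4 are filled, all above 0.

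Between luminal SOX10 high and SOX10 low cells of PY230 tumours, 4 of the 43 genes were called higher and 0 lower, beside 12.6% and 10.0% of all genes tested (22.6% either way). Fen1, the flap endonuclease that trims Okazaki fragments, led at 1.10 ± 0.27 (limma adjusted p = 0.033). It stood at 33 and 17.5 RPKM in luminal SOX10 high and 10.2 and 11.2 in luminal SOX10 low libraries, with no overlap and with library 1 of the high group far above library 2. Rfc3 stood at 36.3 and 22.7 against 14.3 and 14.5, a difference of 0.95 ± 0.22 (adjusted p = 0.0272). Tk1 stood at 56.3 and 39.3 against 24.5 and 31.4, a difference of 0.74 ± 0.20 (adjusted p = 0.0434), and Dtl at 9.97 and 7.19 against 4.43 and 5.32, a difference of 0.69 ± 0.19 (adjusted p = 0.0443). An antisense gene that the tables do not list covers 78.8% of the exon bases of Fen1, and its reads cannot be told from those of Fen1 without strand.

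Library 1 of the luminal SOX10 high group was above library 2 for 41 of the 43 genes, with a median ratio of 1.24, and the 4 called genes were among the 41. The count of 4 became 0 without that library, and 0 without either luminal SOX10 low library, while it became 8 without luminal SOX10 high library 2. It was also 0 without the filter on low values, so 0 of the 4 calls were kept under every alternative. With a replicate block it was 2, Tk1 and Dtl being lost (adjusted p = 0.0612 and 0.0642), and with the luminal SOX10 low numbers crossed, a pairing chosen after seeing the data, 9. Quantile normalization gave 3 higher and 1 lower, and median-of-ratios scaling 4 higher and 1 lower. Both SOX10 high values lay above both SOX10 low values for 20 genes and below them for 4 (Mcm6, Gins2, Rrm2 and Dut), patterns that 34.1% and 33.7% of all genes showed. Mcm6 differed by -0.38 ± 0.14 (95% interval -0.71 to -0.05, adjusted p = 0.094) and Gins2 by -0.44 ± 0.13 (95% interval -0.74 to -0.14), neither past the threshold. The median difference was 0.25 over the members and 0.0079 over all genes.

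In C3-1-TAg tumours 0 of the 43 genes were called between SOX10 high and SOX10 low cells by limma, and 0 had an unadjusted p under 0.05. Of the 11948 genes tested 0.0418% were called. The median difference was 0.12 over the members and -0.038 over all genes, with 32 members positive and 11 negative. Leaving out the 4 libraries that resembled each other across the groups, an alternative chosen after seeing the data, also gave 0 calls. The highest and lowest values of the 2 groups overlapped for all 43 genes, while 0.586% of all genes were separated upward and 0.477% downward.

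The largest difference was that of Dtl, at 0.61 ± 0.28 (95% interval -0.01 to 1.23, limma adjusted p = 1). It stood at 50.02, 27.1, 36.7, 49.5 and 50.4 RPKM in SOX10 high libraries 1 to 5 and 18.4, 44.6, 23.5 and 26.9 in SOX10 low libraries 1 to 4. SOX10 low 2 was the exception among the low libraries, at a level within the high group. Tyms, which makes thymidylate, followed at 0.49 ± 0.23 (95% interval -0.01 to 1.00), with 21, 21.1, 16.5, 23.7 and 28.9 RPKM in SOX10 high libraries 1 to 5 and 11.4, 20.4, 18.9 and 12.3 in SOX10 low libraries 1 to 4. Pola1 was next at 0.34 ± 0.16 (95% interval -0.03 to 0.70), with 24.6, 33.9, 27.8, 27.6 and 30.9 RPKM in SOX10 high libraries 1 to 5 and 22.6, 24.8, 24.7 and 18.6 in SOX10 low libraries 1 to 4. For Mcm6 the interval was -0.19 to 0.72, for Pcna -0.42 to 0.71 and for Mcm2 -0.35 to 0.74, and differences within those intervals cannot be told from 0 with these libraries.

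The members differed widely between libraries of the same group. Their summed share of RPKM ran from 0.441% in SOX10 low 1 to 0.772% in SOX10 low 2, and from 0.578% to 0.742% in the SOX10 high group. SOX10 low 2 held the highest value of 15 members and SOX10 low 1 the lowest value of 19. SOX10 low 1 also had 862 RPKM summed over the 8 immune markers, 631 of it from Lyz2, against 8.36 to 99.2 in the other libraries. Its 5 endothelial markers summed 9.01 RPKM, against 0.133 to 4.18 in the other libraries. Its fibroblast markers summed 313 RPKM, and those of SOX10 high 4 and 5 summed 232 and 287. The replication genes took 0.673% and 0.705% of RPKM in those 2 libraries. The part of such cells in the low levels of SOX10 low 1 was not tested.

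Pcna stood at 161, 98.3, 99.7, 132 and 149 RPKM in SOX10 high libraries 1 to 5 and 84.1, 173, 99.9 and 113 in SOX10 low libraries 1 to 4. Mcm6, the highest ring subunit in all 9 libraries, stood at 163, 131, 123, 173 and 165 RPKM in SOX10 high libraries 1 to 5 and 100.3, 162, 130.3 and 114 in SOX10 low libraries 1 to 4. In both genes SOX10 low 1 was the lowest of the 9 libraries and SOX10 low 2 the highest of the 4 SOX10 low ones. Mcm2 had another order, at 65.8, 111, 71.3, 65.9 and 82.6 RPKM in SOX10 high libraries 1 to 5 and 51.1, 65.4, 104 and 60.9 in SOX10 low libraries 1 to 4, with SOX10 high 2 and SOX10 low 3 on top. Geminin gave the reverse for that pair, with Gmnn at 51.8, 23.6, 40.4, 46.8 and 59.9 RPKM in SOX10 high libraries 1 to 5 and 35.7, 60.02, 26.6 and 49.1 in SOX10 low libraries 1 to 4. SOX10 high 2 and SOX10 low 3 were the lowest libraries for it, as they were for Mcm10, at 19.7, 7.34, 9.04, 19.1 and 19.95 RPKM in SOX10 high libraries 1 to 5 and 10.6, 20.3, 7.01 and 17.8 in SOX10 low libraries 1 to 4. Over the 43 genes the members of this pair differed by a median of 0.078 log2 units and SOX10 high 1 and SOX10 low 2 by 0.0995, against 0.20 for the closest pair within a group, SOX10 high 4 and 5.

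The highest of Mcm2-7 exceeded the lowest between 1.72 and 2.94 times in the 9 libraries, against 2.44 to 5.80 times in PY230 and 5.91 to 33.0 times in the normal libraries. For the loader the ratio ran from 2.48 to 5.17, with Rfc3 the highest subunit in every C3-1-TAg library and Rfc2 in every PY230 library. These ratios are within libraries, and their difference between tables was not tested.

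**Figure D5:**
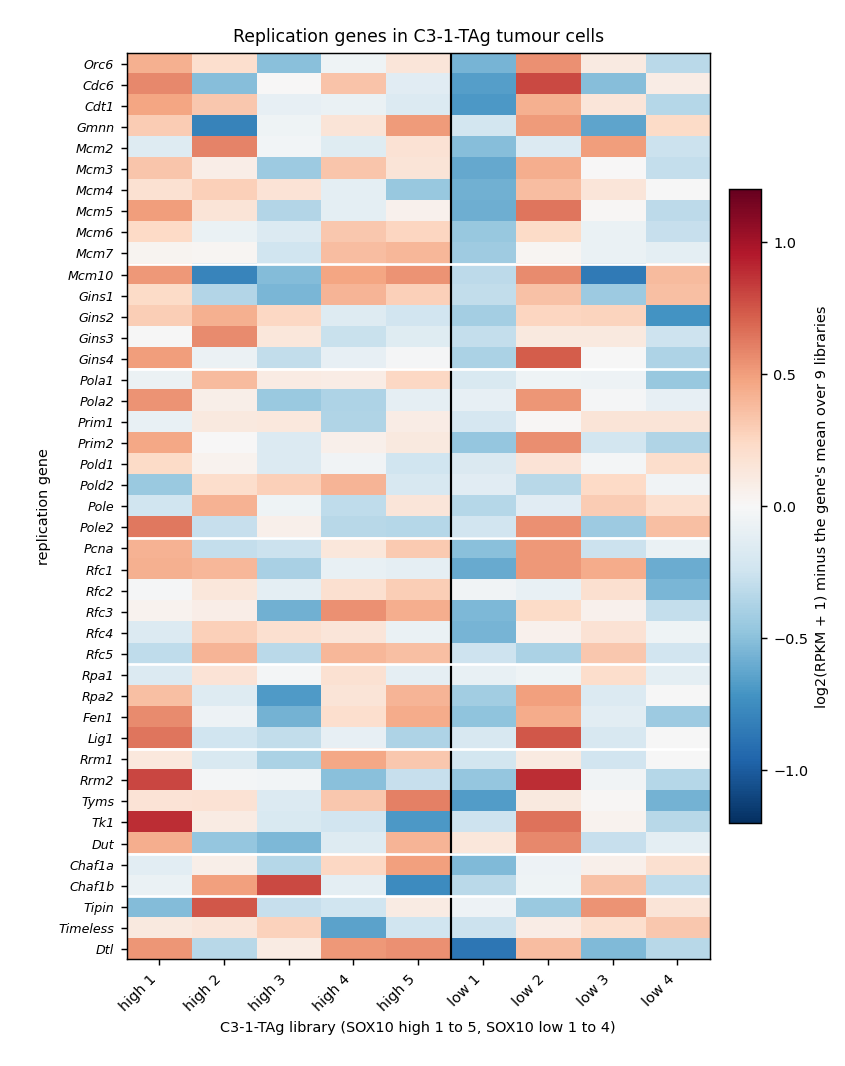
Each replication gene's log2(RPKM + 1) in the 9 C3-1-TAg libraries, as the difference from that gene's mean over the 9 (red above, blue below), with the SOX10 high libraries left of the black line. Columns differ within both groups: SOX10 low 1 is blue for most genes, and SOX10 high 1 matches SOX10 low 2 as SOX10 high 2 matches SOX10 low 3.

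Other genes of replication and of its control were counted the same way. Of 38 further replication genes, 27 (beside 36.9% of all genes tested) rose and 1 (23.4%) fell in fMaSC compared with basal cells, 28 (35.5%) and 0 (15.0%) against luminal progenitors, and 32 (41.7%) and 1 (14.7%) against mature luminal cells. Asf1b, a histone chaperone, and Dscc1, of an alternative clamp loader, were at 42.0 and 23.5 RPKM on average in fMaSC and listed at 0 in both basal libraries. Cdc45, the helicase cofactor, was at 27.9 RPKM in fMaSC and listed at 0 in both mature luminal libraries. Against this direction, Rif1, which delays origin firing, stood at 140.0 RPKM in basal cells and 55.0 in fMaSC, a difference of -1.28 (limma adjusted p = 0.00953). Pold4, the small delta subunit, was lower in fMaSC than in mature luminal cells, by -1.55 (adjusted p = 0.0116).

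Among the same 38 genes 16 were lower and 0 higher in PY230 basal than in luminal SOX10 high cells, beside 28.2% and 13.8% of all genes tested. Against luminal SOX10 low cells 12 were lower and 5 higher, beside 33.4% and 21.8%, so the share called lower was close to that of all genes. Between luminal SOX10 high and low cells 6 were higher and 1 lower, beside 12.6% and 10.0%. Nasp, a histone chaperone, led at 1.45 (limma adjusted p = 0.00877), with Pole3, a histone-fold polymerase subunit, at 1.21 (adjusted p = 0.0159). Pold4 was the 1 lower gene, at -0.66 (adjusted p = 0.0315). In C3-1-TAg tumours 0 of the 38 were called, beside 0.0418% of all genes.

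A list of 28 E2F and RB regulators, of which 26 were tested in the normal table and 27 in the others, was more mixed. In fMaSC 17 of its genes were above and 1 was below adult basal cells past the threshold, beside 36.9% and 23.4% of all genes tested. Against luminal progenitors 18 were above and 2 below, beside 35.5% and 15.0%. Against mature luminal cells 21 were above and 0 below, beside 41.7% and 14.7%. The cyclin Ccna2 was higher in fMaSC than in basal cells by 5.23 (limma adjusted p = 4.28e-05), but so was the cyclin-dependent kinase inhibitor Cdkn1c, by 5.49 (adjusted p = 1.62e-05). Rb1 was lower in fMaSC than in luminal progenitors, at -1.68 (adjusted p = 0.00217), and E2f5 was lower than in basal cells, at -1.01 (adjusted p = 0.00911). Ccnd2 was called higher in PY230 basal than in luminal SOX10 high cells, by 3.16 (adjusted p = 9.38e-05), against the direction of the replication genes. E2f2 followed their direction, at -1.08 (adjusted p = 0.0182).

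The 24 mitosis genes of another list act later in the cell cycle. All 24 were higher in fMaSC in each of the 3 comparisons, beside 36.9%, 35.5% and 41.7% of all genes tested. Their summed level was 1354 and 1339 RPKM there and between 17.5 and 24 in the adult libraries. In each adult library 4 to 9 of the 24 reached 1 RPKM, while all 24 did in both fMaSC libraries. Mitosis genes under 1 RPKM in every adult library thus passed the filter on low values only through fMaSC. Such genes could hardly be called in the other direction, and how many there were was not counted. In PY230 basal cells 16 of the 24 were lower than in luminal SOX10 high cells, beside 28.2% of all genes. Against luminal SOX10 low cells 14 were lower, beside 33.4%. Between luminal SOX10 high and low cells 0 were higher and 1 lower, beside 12.6% and 10.0% of all genes. The 1 lower gene was the spindle kinase Aurka, at -0.65 (limma adjusted p = 0.0387). In C3-1-TAg tumours 0 of the 24 were called, beside 0.0418% of all genes. SOX10 low 1, the lowest C3-1-TAg library for 19 replication genes, had the second highest mitosis sum of the 9, at 972 RPKM, after 1155 in SOX10 high 5. Foxm1 alone gave 189 RPKM of that 972, while Top2a or Ube2c was the highest mitosis gene in the other libraries.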

How the data were processed

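RNA-seq of 23 libraries was analysed from 3 tables. Their deposited values are RPKM per gene, calculated by the authors from reads mapped to mm9, and the submitters' processing notes name FastQC, HISAT2 2.0.5 and StringTie 1.3.1c. The kit does not mark strand, so overlapping genes share reads. Every deposited C3-1-TAg value above 0 was above 2, and the sources used here do not say why; 2 was taken off those values, and every C3-1-TAg RPKM and ratio printed depends on that. Read depth per library is not given in the sources used here, so no counting interval is given, and the number of libraries limits the precision.

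Genes at 1 RPKM or more in at least 2 libraries (4 for C3-1-TAg) were tested with limma 3.58.1 in R 4.3.3 (eBayes with trend) on log2(RPKM + 1), 2-sided, in 1 fit per table over all its groups, with Benjamini-Hochberg adjustment over all genes tested. All 43 members passed this filter in each table. In the normal table Cdc6, Mcm10, Pola2, Tk1 and Chaf1a reached 1 RPKM in the 2 fMaSC libraries only. Pold1, Pole, Rfc5 and Timeless reached it there and in 1 adult library, so these genes too passed only through fMaSC. The scripts were tested on simulated data. The alternatives were a pseudocount of 0.1 RPKM, no filter, quantile normalization, median-of-ratios factors, a term for the replicate number, each library left out, and the C3-1-TAg values as deposited. Same-numbered libraries did not deviate together throughout, so the numbers were not taken to pair them.

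The members and lists were chosen with earlier results of these data known. One marker of another cell type is not reported here and is left out of its list's sum. Values in every library are given by rule for the members of each role with the largest and smallest mean fetal difference, the largest of each other comparison, any called against the majority direction, and all of Mcm2-7 and Gins1-4. Values of Cdc6, Cdt1, Gmnn, Mcm10, Prim1, Pole2, Rfc1, Rfc3 and Tyms were added after they were seen. Promoters came from RefSeq (GRCm38.p6) and overlaps from GENCODE, whose coordinates were not combined with the mm9 tables.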

Additional observations from a re-analysis of the deposited data

Results flagged for a closer look

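In the C3-1-TAg table, 86 groups of values (43 genes in 2 groups) were checked for a library far from the rest of its group by Dixon's ratio at its 95% critical value, and 5 stood out. Chance gives about 1 in 20, so 5 among 86 is close to the count that chance alone gives. In the SOX10 high group, library 1 was the highest for Gins4 (42.0 RPKM, the nearest at 29.0), Lig1 (100.3 RPKM, the nearest at 59.6) and Rrm2 (64.7 RPKM, the nearest at 36.0). In the SOX10 low group, library 2 was the highest for Pola2 (33.0 RPKM, the nearest at 22.4) and Lig1 (108.0 RPKM, the nearest at 63.7). These are the 2 libraries that resembled each other across the groups, with r = 0.979 over genes.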

How the results depend on the processing

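The counts of replication genes higher in fMaSC stayed between 40 and 43 of 43 in the 3 comparisons under every alternative run, and the C3-1-TAg count stayed at 0. No call of a replication gene changed direction. Over all their calls, with a library left out 163 values lost the call and 673 kept it, and under the other settings 75 and 994 did; causes were not tested, though leaving out a library itself leaves fewer samples. With each library left out in turn, the replication genes called ranged from 4 to 16 (9 with all libraries) for luminal progenitor against basal, 1 to 3 (3) for luminal progenitor against mature luminal, 10 to 20 (17) for basal against mature luminal, 0 to 8 (4) for PY230 luminal SOX10 high against low, 12 to 33 (27) for PY230 basal against luminal SOX10 high, and 5 to 10 (20) for basal against luminal SOX10 low. Over all genes the ranges were 3847 to 4849 (6349) for fMaSC against luminal progenitor, 2529 to 6174 (4455) for luminal progenitor against basal, 954 to 1474 (2770) for luminal progenitor against mature luminal, 3650 to 7381 (6099) for basal against mature luminal, 461 to 3838 (2974) for PY230 luminal SOX10 high against low, 3451 to 5552 (5513) for PY230 basal against luminal SOX10 high and 0 to 11 (5) for C3-1-TAg.

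Without the filter on low values, 1 replication gene was called between luminal progenitor and mature luminal cells, 0 between PY230 luminal SOX10 high and low cells (1826 over all genes), and 0 genes of any kind in C3-1-TAg. Median-of-ratios factors gave 5 replication genes between luminal progenitor and mature luminal cells and 12 between PY230 basal and luminal SOX10 low cells. Over all C3-1-TAg genes, a pseudocount of 0.1 RPKM gave 2 calls, the values as deposited 3, and leaving out the 4 resembling libraries, chosen after seeing the data, 0. With a replicate block, the PY230 luminal SOX10 high against low count of replication genes was 2, and all C3-1-TAg genes gave 0; the other replicate block counts stayed within 1.5 times, among them 43 of 43 in each fMaSC comparison. Deviations of same-numbered PY230 libraries correlated at 0.295, -0.201 and -0.265, and 0 of 4 C3-1-TAg libraries correlated best with their own number. A crossed replicate block, with the luminal SOX10 low numbers swapped after seeing the data, gave 9 replication genes between luminal SOX10 high and low, and 24 between basal and luminal SOX10 low. Read depth was not given, so low values such as those of the adult cells carry a counting error of unknown size.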
